A study of Mus musculus with 6 samples.

Results

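The interleukin-6 (IL-6) family genes described here are 4 ligands (Il6, Lif, Il11, Clcf1), 4 receptor chains (Il6st, Il6ra, Lifr, Osmr), the transcription factor Stat3 and the feedback inhibitor Socs3. They were chosen by gene name from the 54532 genes of one count table, and all 10 were found in it. The data are RNA sequencing of immortalized mouse cardiosphere-derived cells (iCDCs), which the study also calls iECDCs, cells grown from the ventricle epicardium (the outer layer of the heart) of C57BL/6 mice and kept dividing with a human telomerase (hTERT) transgene, which all 6 libraries share. The 3 control libraries came from iCDCs at passage 30. The 3 induced libraries came from iCDCs of passage 30 that had received 10 µM 5-aza (5-azacytidine, an inhibitor of DNA methylation) for 3 days and were then grown for 4 weeks in IMDM with 2% FBS. The study's methods give another medium and another duration for this later culture, and describe routine growth of the line in IMDM richer in serum, without saying how the sequenced control cultures were kept. Drug, serum and time in culture therefore cannot be told apart in this comparison. The hTERT was delivered by a lentivirus with a CMV promoter, followed by puromycin selection, so the line is a selected population, and the animals behind it are not given per library.

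IL-6 family cytokines signal through gp130, the shared receptor chain encoded by Il6st. IL-6 and IL-11 reach gp130 through their own binding chains (Il6ra, Il11ra1), whereas LIF brings gp130 together with Lifr, and oncostatin M brings it together with Osmr. Janus kinases bound to these chains then phosphorylate STAT3, which enters the nucleus and switches on, among other genes, Socs3, whose product blocks gp130 signaling. In the heart this pathway is known for its part in cardiomyocyte survival and growth and in the response of fibroblasts and other stromal cells to injury.

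Of the 10 genes, 9 had enough reads to be tested and Il11 did not. By the quasi-likelihood test of edgeR, adjusted after Benjamini and Hochberg over all 14246 genes tested, 7 of the 9 were past an adjusted p of 0.05, where the share of all tested genes past it was 64.8% (32.6% higher and 32.2% lower). The ligands Lif and Clcf1 were higher in induced cells. The receptor chains Il6st, Lifr and Osmr, and Stat3 and Socs3, were lower, and Il6 and Il6ra did not pass the test. Lif (higher) and Socs3 (lower) changed at least 2-fold, 2 of 9, where 17.1% of all tested genes had one. The median log2 fold change was -0.32 over the 9 genes and -0.01 over all genes tested. In RNA of whole cultures, fewer cells that express a gene and less of its RNA per cell cannot be told apart.

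The libraries held 19041133 to 19823369 counts each, so that 3 counts, the limit a count of 0 allows, correspond to 0.15 to 0.159 CPM, the read counts scaled to library size with TMM factors. Of 8 genes by which such cells are described, all were detected, and 5 rose (Thy1, Eng, Upk3b, Gata4 and Col3a1) and 3 fell (Ly6a, -0.57 on the log2 scale, Tbx18, -0.33, and Pdgfra, -0.73). Over all genes tested, 32.6% were higher and 32.2% lower. The summed level of the 8 genes was 4475 to 4821 CPM in control and 7459 to 7611 CPM in induced libraries. This sum is mostly Col3a1, which the study stained as a fibroblast marker. Of 12 leukocyte markers, 5 were at 0 in every library, including Ptprc, which encodes CD45, and the T cell gene Cd3e. Of the 5 that were tested, Cd68, Fcer1g and Lyz2 rose (log2 fold changes 3.89, 6.36 and 1.96), Csf1r fell (-1.05), and Coro1a did not pass (0.36). Fcer1g had 2 reads over the control libraries and 187 over the induced libraries. It passed the filter through the induced libraries alone, and the size of its change is uncertain. The summed leukocyte list was 27.7 to 31 CPM in control and 54.8 to 62.8 CPM in induced libraries, and the 6 endothelial markers summed to 1.6 to 1.89 and 1.21 to 2.31 CPM. The part of these marker changes in the IL-6 family results was not tested.

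Promoter sequences are shown because they belong to the pair of members that changed at least 2-fold (Lif, Socs3) and to the ligand that names the family (Il6), and because each holds a match to a searched motif, in capitals. The RefSeq promoter table, on GRCm38.p6, held 9 of the 10 genes, not Clcf1, and gives 250 bases before and 50 after each start; the printed stretch ends before the first exon of any annotated transcript of the gene that lies there. Positions are counted from the annotated start. In Il6 (chr5:30012864-30013113, plus strand) the capitals mark an AP-1 motif read on the reverse strand, from position -249, and an NF-kB motif from position -44. In Lif (chr11:4257318-4257556, plus strand) they mark an AP-1 motif from position -228, and in Socs3 (chr11:117969452-117969616, minus strand) a STAT motif from position -154, in a stretch that is intron of a longer annotated Socs3 transcript.
Il6: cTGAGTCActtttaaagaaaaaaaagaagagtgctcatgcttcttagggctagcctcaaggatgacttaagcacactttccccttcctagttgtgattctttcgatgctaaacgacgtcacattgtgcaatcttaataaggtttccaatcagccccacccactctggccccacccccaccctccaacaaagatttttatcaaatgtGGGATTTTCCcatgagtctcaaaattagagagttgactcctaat
Lif: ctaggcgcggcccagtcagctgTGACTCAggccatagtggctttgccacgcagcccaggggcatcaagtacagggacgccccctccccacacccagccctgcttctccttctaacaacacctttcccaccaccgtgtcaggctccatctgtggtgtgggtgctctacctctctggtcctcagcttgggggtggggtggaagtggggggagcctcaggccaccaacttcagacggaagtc
Socs3: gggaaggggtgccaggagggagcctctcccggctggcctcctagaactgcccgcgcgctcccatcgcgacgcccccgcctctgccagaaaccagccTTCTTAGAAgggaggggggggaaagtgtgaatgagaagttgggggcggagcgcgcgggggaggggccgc

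The letters searched, on both strands, were TTCNNNGAA for STAT proteins, the NF-kB motif and TGACTCA for AP-1, and they were found in 8.3%, 1.63% and 5.2% of all 32851 promoters of 300 bases. Of the 9 genes with a promoter, 1 (Socs3) held the STAT letters, 1 (Il6) the NF-kB motif, and 3 (Il6, Lif and one of 2 Il11 promoters) the AP-1 letters. A match describes the letters only, and binding was not measured. Since 5-azacytidine inhibits the methylation of CpG, CpG were also counted. The Il6 promoter held 3 CpG and that of Lif 7, against 31 in Socs3, 33 in Il6st, 25 in Il6ra, 22 in Osmr and 15 in Stat3, with a median of 7 over all promoters (quartiles 3 and 20). Lifr has 2 promoters in the table, with 53 and 4 CpG, and Il11 has 2, with 1 and 13. The gene that rose most among the members, Lif, was thus at the median CpG count, and methylation of these promoters was not measured.

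Among the ligands, Lif (ENSMUSG00000034394, chromosome 11, 4257557 to 4272514, plus strand), which encodes leukemia inhibitory factor, showed the largest change of the 9 tested members. It had 21.2, 19.8 and 20.1 CPM in the control libraries and 82.0, 78.2 and 76.5 CPM in the induced libraries. The groups were far apart, with every induced library above 3 times any control library. Lif rose from 20.4 ± 0.72 to 78.9 ± 2.83 CPM (SD, n = 3), 3.87-fold (a log2 fold change, below log2 change, of 1.95, SE 0.06, 95% interval 1.83 to 2.08, edgeR adjusted p 2.92e-15). Of all genes tested, 4.27% rose at least as far.

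Clcf1 (ENSMUSG00000040663, chromosome 19, 4214238 to 4223490, plus strand) encodes a cytokine that acts through the CNTF receptor. It had 24.1, 24.7 and 28.3 CPM in control and 30.2, 30.1 and 29.6 CPM in induced libraries. All induced values lay above all control values, but control replicate 3 came close to them. Clcf1 rose by 0.22 on the log2 scale (SE 0.07, 95% interval 0.06 to 0.38, edgeR adjusted p 0.0151). A rise at least as large was seen in 32.9% of tested genes. The call was lost without control replicate 1 (log2 change 0.18, edgeR adjusted p 0.0756) and without control replicate 2 (0.19, edgeR adjusted p 0.0725), and another annotated gene covers 8.17% of its exon bases.

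Il6 (ENSMUSG00000025746, chromosome 5, 30013114 to 30019981, plus strand) was expressed at a low level. It had 3.85, 4.43 and 3.61 CPM in control and 2.6, 2.84 and 3.83 CPM in induced libraries. Induced replicate 3 lay within the control range, so the groups overlapped. The log2 fold change was -0.36 (SE 0.19, 95% interval -0.76 to 0.05, edgeR adjusted p 0.112), and the change was not past the threshold. Without induced replicate 3 it was -0.53 with an edgeR adjusted p of 0.0373, so 1 library decided this call.

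Il11 (ENSMUSG00000004371, chromosome 7, 4772373 to 4782857, minus strand), a ligand studied for its part in fibrosis, had 15 reads over the control libraries and 14 over the induced libraries. Its levels were 0.405, 0.204 and 0.15 CPM in control and 0.266, 0.158 and 0.314 CPM in induced libraries, and the groups overlapped at values near the limit of 3 counts. The ratio of reads, induced over control, was 0.973 with a 95% interval of 0.435 to 2.16, which covers counting error only. A change in Il11 within this interval was not detectable at this depth.

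**Figure D1:**
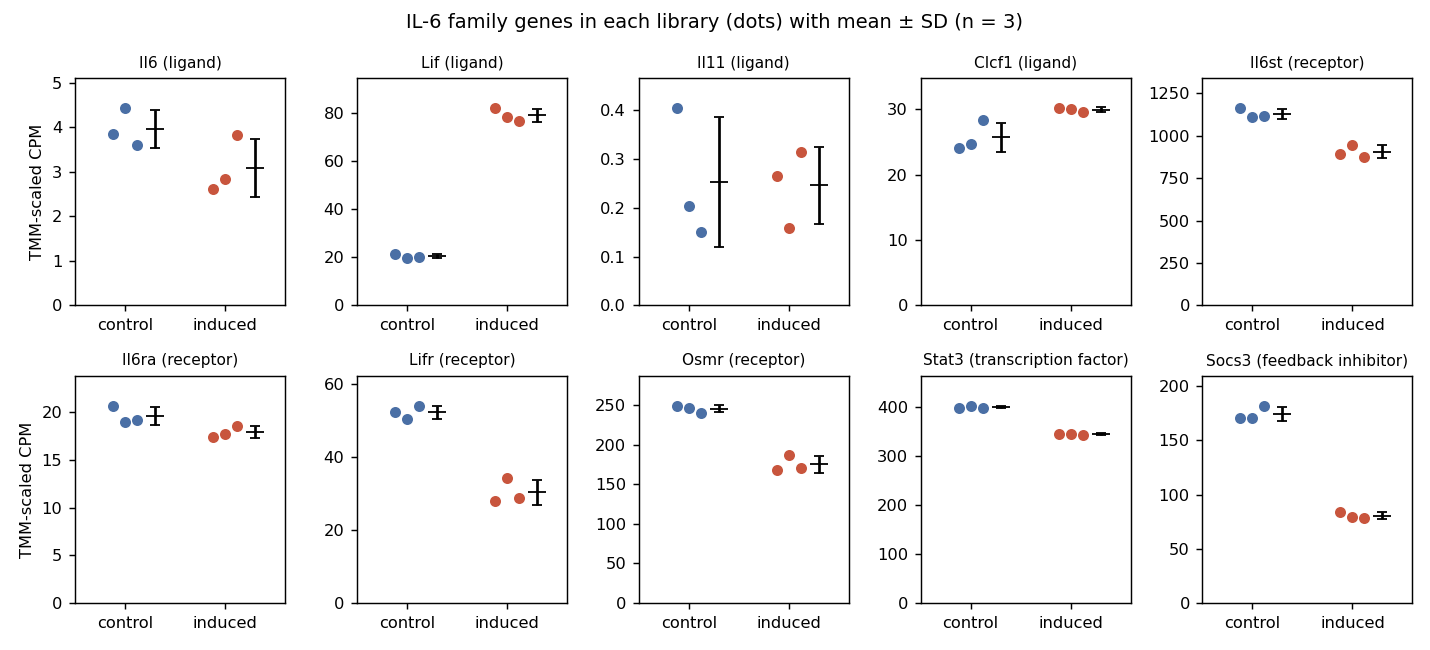
TMM-scaled CPM of the 10 IL-6 family genes, one panel per gene with its own linear axis from 0; dots are the 3 control (blue) and 3 induced (red) libraries, and black bars are mean ± SD. Lif stands higher in every induced library (76.5 to 82.0 against 19.8 to 21.2 CPM), Socs3 lower in every induced library (78.2 to 83.9 against 171 to 182 CPM), and the groups overlap for Il6 and Il11.

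Among the receptor chains, Il6st (ENSMUSG00000021756, chromosome 13, 112464070 to 112510086, plus strand), which encodes gp130, had the highest level per gene length of the members. It had 1164, 1113 and 1114 CPM in control and 894, 948 and 874 CPM in induced libraries, and the groups did not overlap. Il6st fell to 80.1% of its control level (log2 change -0.32, SE 0.04, 95% interval -0.41 to -0.23, edgeR adjusted p 3.5e-06).

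Lifr (ENSMUSG00000054263, chromosome 15, 7090614 to 7197489, plus strand), the LIF-binding chain, fell most among the receptor chains. It had 52.4, 50.5 and 54.1 CPM in control and 27.9, 34.3 and 28.8 CPM in induced libraries. Every induced library was below every control library, with induced replicate 2 nearest to them. Lifr was at 58.0% of its control level (52.3 ± 1.83 and 30.3 ± 3.46 CPM, SD, n = 3; log2 change -0.79, SE 0.07, 95% interval -0.94 to -0.63, edgeR adjusted p 1.96e-08).

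Osmr (ENSMUSG00000022146, chromosome 15, 6813577 to 6874969, minus strand), the oncostatin M chain, had 249, 246 and 240.2 CPM in control and 168, 187 and 169.9 CPM in induced libraries. The groups did not overlap, and induced replicate 2 was again the highest of its group, as it was for Il6st. Osmr fell to 71.3% of its control level (log2 change -0.49, SE 0.05, 95% interval -0.59 to -0.38, edgeR adjusted p 1.18e-07).

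Il6ra (ENSMUSG00000027947, chromosome 3, 89864059 to 89913196, minus strand), the IL-6 binding chain, had 20.7, 19 and 19.2 CPM in control and 17.4, 17.7 and 18.6 CPM in induced libraries. The libraries of the groups did not overlap, but the gap was small against their spread. The log2 fold change was -0.13 (SE 0.08, 95% interval -0.30 to 0.04, edgeR adjusted p 0.158). The change did not pass the test, and another annotated gene covers 2.8% of its exon bases.

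Osmr and Lifr lie next to each other on chromosome 15, with 215644 bases between the end of Osmr and the start of Lifr and 0 tested genes in between. Of the 4 other tested genes within 500 kb, Dab2 rose (log2 change 0.55) and Fyb fell (-1.18, at under 1 CPM in both groups), and Rictor (-0.03, edgeR adjusted p 0.791) and Gm7666 (-0.04, edgeR adjusted p 0.842) did not pass the test. Over the 561 tested genes of chromosome 15 the median log2 fold change was -0.24, with 115 higher and 288 lower, where the medians of the other chromosomes lay between -0.06 and 0.17. The part of this chromosome-wide difference in the values of Osmr and Lifr was not tested.

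Stat3 (ENSMUSG00000004040, chromosome 11, 100885098 to 100939540, minus strand), the transcription factor at the end of the pathway, had 398, 402 and 397 CPM in control and 345, 345 and 343 CPM in induced libraries. The values within each group were close together and the groups did not overlap. Stat3 fell to 86.4% of its control level (log2 change -0.21, SE 0.04, 95% interval -0.30 to -0.12, edgeR adjusted p 0.000247). A fall at least as large was seen in 34.8% of tested genes. The amount of RNA says nothing of STAT3 phosphorylation, which was not measured.

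Socs3 (ENSMUSG00000053113, chromosome 11, 117966079 to 117970047, minus strand), the inhibitor whose promoter holds the STAT letters shown above, fell most among the members. It had 171, 171 and 182 CPM in control and 83.9, 79.4 and 78.2 CPM in induced libraries. Every induced library was below every control library. Socs3 fell from 175 ± 6.0 to 80.5 ± 3.02 CPM (SD, n = 3), 2.17-fold (log2 change -1.12, SE 0.05, 95% interval -1.23 to -1.01, edgeR adjusted p 1.39e-12). A fall at least as large was seen in 6.81% of tested genes.

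**Figure D2:**
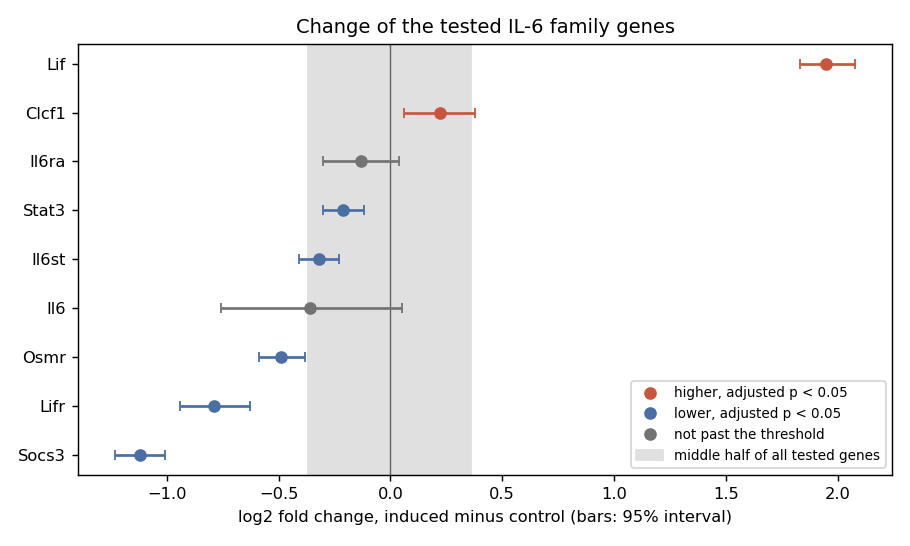
Log2 fold change, induced minus control, of the 9 tested members with 95% intervals from the edgeR fit; red and blue mark genes past an adjusted p of 0.05, grey dots those that are not, and the grey band runs from the lower to the upper quartile of all 14246 tested genes (-0.37 to 0.36). Lif, Socs3, Lifr and Osmr lie outside the band, and the intervals of Il6 and Il6ra include 0.

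Levels of different genes were compared per gene length, on the deposited FPKM values (reads scaled to gene length and library size). In control cells the order was Il6st (101 ± 2.63 FPKM, SD, n = 3), Socs3 (59.8), Stat3 (41.5), Osmr (20), Clcf1 (6.86), Lifr (4.81), Lif (4.64), Il6ra (2.25), Il6 (1.62) and Il11 (0.125). In this order only Lifr and Lif overlapped as neighbors, so that their FPKM in control cells did not differ beyond the spread. In induced cells the order was Il6st (81.4 ± 3.3), Stat3 (36.1), Socs3 (27.8), Lif (18.1), Osmr (14.4), Clcf1 (8.06), Lifr (2.81), Il6ra (2.07), Il6 (1.27) and Il11 (0.122), with no overlap between neighbors. Lif moved from the seventh to the fourth place, above Osmr, Clcf1 and Lifr, and Socs3 moved from above Stat3 to below it.

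**Figure D3:**
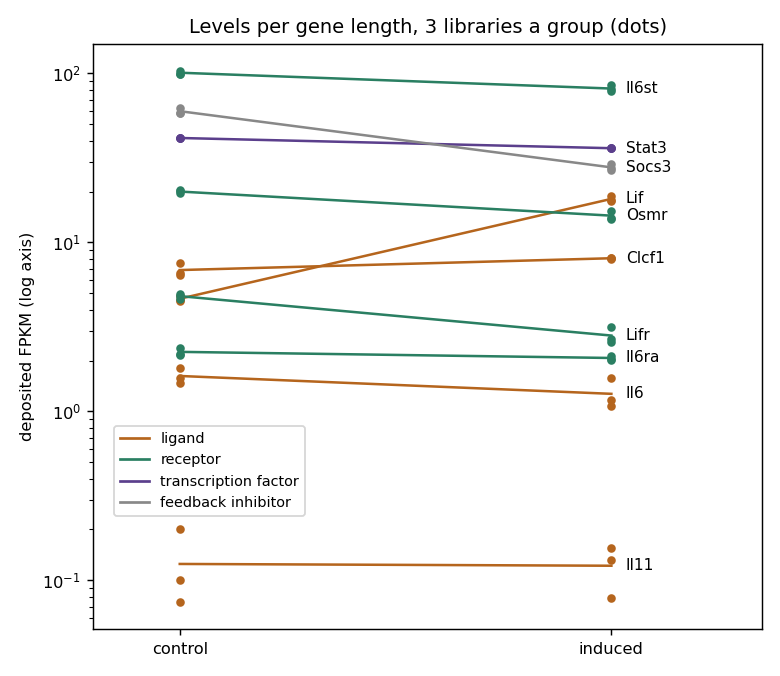
Deposited FPKM of the 10 genes on a log axis; dots are the 3 libraries of each group and lines join the group means, colored by role. The line of Lif rises from 4.64 to 18.1 FPKM and crosses those of Clcf1 and Osmr, and the line of Socs3 falls from 59.8 to 27.8 FPKM and crosses that of Stat3.

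Within each library, the ratio of Lif to its receptor chain Lifr was 1, 0.973 and 0.92 in control and 7.28, 5.65 and 6.57 in induced libraries (FPKM ratios, mean 0.965 ± 0.0415 and 6.5 ± 0.818, SD, n = 3). The ligand thus went from about the level of its receptor chain to several times that level. The ratio of Socs3 to Stat3 was 1.42, 1.41 and 1.51 in control and 0.801, 0.759 and 0.751 in induced libraries. The shared chain Il6st exceeded Lifr 21 ± 0.876 times in control and 29.1 ± 2.15 times in induced cells, and exceeded Il6ra 44.9 ± 0.926 and 39.4 ± 2.56 times. These ratios follow from the values above and were not tested.

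Of the summed FPKM of the 4 ligands, Lif made up 35.1 ± 1.81% in control and 65.7 ± 1.2% in induced cells (SD, n = 3). The share of Clcf1 was 51.7 ± 3.08% and 29.2 ± 0.386%, and that of Il6 was 12.2 ± 1.58% and 4.6 ± 1.03%. Shares of one sum depend on each other, so the rise of Lif lowers the other shares. In FPKM, Clcf1 rose from 6.86 to 8.06, and Il6, at 1.62 and 1.27, did not pass the test. Il11 was under 2% in every library. Of these 4, the leading ligand RNA was therefore Clcf1 in the control libraries and Lif in the induced libraries.

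The partners of the members were read from lists of the other family genes. Of 7 other ligands and ligand subunits, 1 was tested. Ctf1, which encodes cardiotrophin-1, rose from 7.19 ± 0.859 to 9.83 ± 0.741 CPM (log2 change 0.45, SE 0.12, edgeR adjusted p 0.00414), and Ctf2 covers 4.77% of its exon bases. The others were too low to test: Osm, Ebi3 and Il31 had 0 reads in all 6 libraries, and Ctf2, Cntf and Il27 had 5, 8 and 1 reads in control and 3, 11 and 2 in induced libraries.

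Of 5 other receptor chains, 3 were tested. Cntfr, the CNTF-binding chain through which Clcf1 also acts, had 11.4, 10.9 and 10.5 CPM in control and 2.34, 2.16 and 1.99 CPM in induced libraries, and fell 5.05-fold (log2 change -2.34, SE 0.14, edgeR adjusted p 7.97e-11). The groups were far apart for Cntfr, and in FPKM the ratio of Clcf1 to Cntfr was 1.77 ± 0.224 in control and 10.4 ± 0.716 in induced cells (SD, n = 3). Il27ra, a receptor chain for IL-27, fell from 10.6 ± 0.0637 to 3.66 ± 0.275 CPM (log2 change -1.53, SE 0.13). Il11ra1, the IL-11 binding chain, had 83.4, 82.5 and 88.8 CPM in control and 126, 93.9 and 117 CPM in induced libraries and rose by 0.41 on the log2 scale (SE 0.08, edgeR adjusted p 0.000219). Its near-identical copies, one of which (Il11ra2) had 8 and 26 reads, may have shared its reads, so that its count is uncertain. Il31ra had 0 and 4 reads.

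Of 9 kinases, other STATs and adaptors, 3 were higher, 3 lower and 3 not past the threshold, near the shares of all genes tested (32.6% higher, 32.2% lower), with a median log2 fold change of 0.05. Jak2, one of the kinases bound to gp130, had 119.7, 117 and 114 CPM in control and 46.1, 56.4 and 49.6 CPM in induced libraries, and fell 2.31-fold (log2 change -1.21, SE 0.07, edgeR adjusted p 1.19e-11). The groups did not overlap for Jak2. The rises were those of the adaptor Gab1 (0.35), Stat5b (0.29) and the phosphatase Ptpn11 (0.21), smaller falls those of Tyk2 (-0.33) and Stat5a (-0.30), and Jak1, Grb2 and Sos1 did not pass (-0.10, 0.05 and 0.06). Jak1 passed without induced replicate 2 (-0.14).

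Of 9 other negative regulators, 2 were higher, 3 lower and 4 not past the threshold (median log2 fold change -0.07). The shares over all genes tested were 32.6% higher and 32.2% lower. Socs2, which curbs growth hormone signaling, had 60.4, 60.6 and 56.8 CPM in control and 18.7, 19 and 19.2 CPM in induced libraries, and fell 3.12-fold (log2 change -1.64, SE 0.06, edgeR adjusted p 6.78e-14). Cish, of the same family as Socs2 and Socs3, fell by 0.61 on the log2 scale, with 11.5% of its exon bases in overlap with other genes, and the STAT inhibitor Pias3 fell by 0.22, a call lost with DESeq2. Socs7 and Pias1 rose (0.27 and 0.30). Socs1, Socs5, Ptpn1 and Ptpn2 did not pass (-0.27, 0.04, -0.07 and 0.07). Of the 5 genes of the Socs and Cish family in this list, Socs2 and Cish fell, as Socs3 did. Socs7 rose, and Socs1 and Socs5 did not pass. So few genes do not set the family apart from the shares of all genes tested.

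Of 20 genes described as STAT3 targets, all tested, 7 were higher, 12 lower and 1 (Hif1a, 0.01) not past the threshold, with a median log2 fold change of -0.42. Over all genes tested, 32.6% were higher and 32.2% lower. Saa3, an acute-phase protein gene, fell from 2159.9 ± 139 to 496 ± 69.0 CPM (SD, n = 3; log2 change -2.12, SE 0.08, edgeR adjusted p 2.91e-14), and Myc, a growth regulator that lies on chromosome 15, fell from 87.4 ± 2.52 to 27.9 ± 1.34 CPM (-1.65, SE 0.06, edgeR adjusted p 2.17e-14). Lbp, also an acute-phase gene, rose from 97.4 ± 5.48 to 220.3 ± 11.8 CPM (1.18, SE 0.06, edgeR adjusted p 1.98e-12), and the angiogenic factor Vegfa rose from 170.2 ± 1.33 to 325 ± 15.8 CPM (0.93, SE 0.05, edgeR adjusted p 6.45e-12). Each of these genes also answers to other factors, and STAT3 activity was not measured.

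Genes that act on IL-6 family RNA or shed its receptors were read as 1 list of 7, of which 0 were higher, 5 lower and 2 not past the threshold (median log2 fold change -0.19). Of all genes tested, 64.8% were called, 32.6% higher and 32.2% lower, whereas every call in this list was lower. Zc3h12a, which encodes the RNase Regnase-1 that degrades Il6 RNA, had the largest fall in the list, from 23.0 ± 0.731 to 14.7 ± 1.13 CPM (log2 change -0.64, SE 0.08, edgeR adjusted p 2.29e-06). Arid5a, which stabilizes Il6 RNA, fell by 0.30 on the log2 scale (SE 0.08, edgeR adjusted p 0.00216). The RNA-binding protein genes Zfp36l1 (-0.36, with 55.9% of its exon bases in overlap with another gene) and Rc3h1 (-0.19, a call lost under 7 of 15 alternatives) were also lower, as was the protease Adam10 (-0.15, also lost under 7 of 15), whereas Adam17 and Zfp36 did not pass (0.04 and 0.00).

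Of 14 genes of the IL-1, TNF and Toll-like receptor routes, which are known to induce Il6, 11 were tested, with 4 higher, 4 lower and 3 not past the threshold (median log2 fold change -0.08). These counts are near the shares of all genes tested (32.6% higher, 32.2% lower). Il1r1, the signaling receptor for IL-1, fell from 82.1 ± 4.69 to 31.2 ± 1.95 CPM (SD, n = 3; log2 change -1.39, SE 0.06, edgeR adjusted p 7.91e-13), and the cytokine Il33 fell from 29.5 ± 1.26 to 14.4 ± 1.07 CPM (-1.04, SE 0.08, edgeR adjusted p 2.47e-09). The IL-1 receptor antagonist Il1rn was also lower, at 3.73 ± 0.727 and 0.563 ± 0.242 CPM (-2.71, SE 0.30, edgeR adjusted p 2.69e-07). Tlr3, a receptor for double-stranded RNA, rose from 6.13 ± 0.377 to 12.3 ± 0.80 CPM (1.00, SE 0.12, edgeR adjusted p 4.42e-07). The other rises were those of Tnfrsf1b (0.36), Il1rap (0.27) and Tlr4 (0.18, a call lost under 8 of 15 alternatives), and the TNF receptor Tnfrsf1a fell by 0.23. Tlr2 and Myd88 did not pass (-0.08 and -0.10), though Myd88 passed without induced replicate 1 (-0.16). Il1rl1 did not pass either (1.23), and its value turned to -0.57 without induced replicate 3. The ligands Il1a, Il1b and Tnf were too low to test, with 2, 1 and 0 reads in control and 1, 0 and 0 reads in induced libraries.

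**Figure D4:**
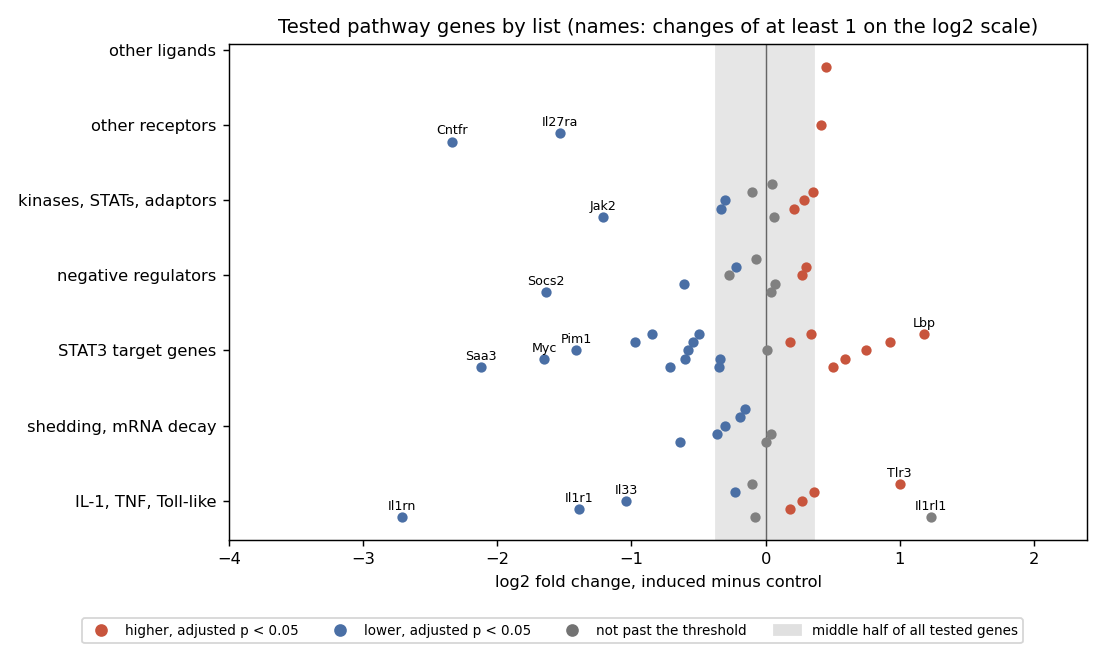
Log2 fold change, induced minus control, of every tested gene in 7 lists around the IL-6 family, one row per list; red and blue mark genes past an adjusted p of 0.05, grey those that are not, the grey band is the quartile range of all tested genes (-0.37 to 0.36), and genes at 1 or beyond in either direction are named. Cntfr (-2.34), Socs2 (-1.64) and Jak2 (-1.21) stand left of the band and Lbp (1.18) and Tlr3 (1.00) right of it; Pim1 and Il1rl1 are named here for their size alone, and Il1rl1 was not past the threshold.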

How the data were processed

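RNA was sequenced from 3 control and 3 induced samples, grouped by their titles. The authors deposited one table with raw counts per gene and FPKM values per library; the labels name HISAT2 2.0.5, featureCounts 1.5.0-p3, DESeq2 1.16.1 and build mm10, while the study's methods describe another tool set and platform, and strand setting is not given in the sources used here, so genes that overlap others carry uncertain counts. The deposited fold changes, p-values and Gene Ontology tables of the authors were not used.

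Counts were tested in R 4.3.3 with edgeR 4.0.16 (filterByExpr with minimum count 10 and minimum total 15, TMM, two-sided quasi-likelihood test, Benjamini-Hochberg adjustment over 14246 genes, threshold 0.05, prior count 0.125). P-values measure the spread between libraries, which may be technical, since separate cultures are not named; no pair within a group agreed within sampling noise. In most alternatives, 1 choice was changed at a time. These were the scaling (size factors by median ratio, or library totals) and the filter (none, or a mean count of 10 with 1 CPM in 3 libraries). Others were the threshold (0.01), a block for the replicate number, and the omission of each library, after which the filter was applied again. Where the test was changed, other choices changed with it. DESeq2 1.42.0 was run without the filter and with its own size factors. The limma 3.58.1 runs used the logarithm of FPKM with 1 or 0.1 added in place of TMM-scaled counts, on the same genes. Calls lost or gained in these runs cannot be put down to the test alone. Replicate numbers come from the titles and did not pair the samples. Members and lists were chosen with earlier results of these data known. Some genes of the pathway are not reported here, and the lists are counted without them. Named genes are the 10 members, up to 4 genes per list with the smallest p, and genes that make up a count of 5 or fewer. Coordinates are those of the deposited table; gene coordinates and exon overlap were checked against GENCODE M21, with which 98.3% of shared genes had the same coordinates. Promoters are from RefSeq. The interval of the Il11 read ratio and the limits of 3 counts cover counting error only. The intervals of log2 fold changes come from the edgeR fit and include the spread between libraries.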

Additional observations from a re-analysis of the deposited data

How the results depend on the processing

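The 69 genes checked were the tested members and the tested genes of the pathway lists, and the marker genes were left out. Of 1034 values over these genes and 15 alternatives, 990 kept their direction and their side of the threshold. The call was lost in 26 (8 for Tlr4, 7 for Rc3h1, 7 for Adam10, 3 for Clcf1, 1 for Pias3) and gained in 7 (3 for Il1rl1, 2 for Jak1, 1 each for Il6 and Myd88). The sign reversed in 11, all of genes not past the threshold: with library totals alone Hif1a and Zfp36 (both -0.03), and when each library was left out Hif1a (-0.07 to 0.07), Zfp36 (-0.01 to 0.03), Sos1 (-0.02 to 0.12), Socs5 (-0.01 to 0.08), Adam17 (-0.01 to 0.08) and Il1rl1 (-0.57 without induced replicate 3, to 1.71 without induced replicate 1). Il1rl1 gave no value under the stricter filter. The number of members called higher was 1 at an adjusted p of 0.01 and ranged from 1 to 2 when each library was left out (1 without control replicate 1 or control replicate 2). Of the other receptors, 2 were called higher with no filter. In the list of shedding and RNA decay genes, 3 were called lower with limma on log2(FPKM + 1), with limma on log2(FPKM + 0.1) and at an adjusted p of 0.01, and 3 to 5 when each library was left out (3 without control replicate 2, induced replicate 1 or induced replicate 3). With the replicate block, 7 members were called, 2 higher and 5 lower, and 9063 genes in all; deviations of same-numbered libraries correlated at 0, -0.02 and 0.03, so they share only a number. With library totals alone the median of all genes was -0.04, and the members called were 7. The cause of these differences was not tested. Depth limits Il11, the other ligands at 0 to 11 reads, and changes of Il6, whose interval is the widest of the 9 tested members.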
